A study of Mus musculus with 46 samples.

Results

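SR proteins, hnRNPs and the kinases that act on them form the regulatory layer of pre-mRNA splicing. SR proteins (the Srsf genes, with the related Tra2a and Tra2b) carry an RNA recognition motif and a domain rich in arginine and serine, and they mostly promote the use of exons to which they bind. The hnRNPs coat nascent transcripts and often repress exons, while CLK kinases phosphorylate the arginine-serine domain and release SR proteins from nuclear speckles. The LUC7-like proteins are homologues of a yeast U1 snRNP component that helps to choose 5′ splice sites. Many of these genes control their own level through alternative exons or retained introns that mark the transcript for nonsense-mediated decay or hold it in the nucleus, and the gene-level values used here do not separate such transcripts from productive ones.

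The genes were chosen by symbol, as every listed Srsf gene followed by a number, every Hnrnp gene, Clk1 to Clk4, the Luc7l genes and both Tra2 genes. This gave 40 genes of 24537 in 2 of the tables and 41 of 25124 in the other 2, the additional one being the pseudogene Hnrnpa1l2-ps2. In every experiment 39 of them reached 1 TPM, the unit of the tables, in which a read count is scaled to transcript length and library size, in at least 2 libraries and were tested: 10 Srsf, 20 Hnrnp, 4 Clk, 3 Luc7l and 2 Tra2 genes. Srsf12 and the pseudogene did not reach that level.

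RNA was sequenced from mouse bone marrow-derived macrophages, in 45 libraries of 46 labelled samples that fall into 23 groups of 2, in 4 experiments tabulated and normalised separately. In the 4 hr compound experiment, wild-type cells were left unstimulated or given lipid A, the part of lipopolysaccharide (LPS) that activates Toll-like receptor 4, for 1 or 4 hr, and the cells given ACBI1, BRM014 or BRDK98 were collected at 4 hr of lipid A. In the Arid1a experiment, Arid1a f/f control cells were taken at 0, 1 and 4 hr of LPS and Arid1a-/- cells at 1 and 4 hr. In the Pbrm1 experiment, Pbrm1 f/f controls were collected unstimulated and after 4 hr of lipid A, and Pbrm1-/- cells after 4 hr. In the early compound experiment, wild-type cells were taken at 0, 20 and 60 min of lipid A and cells with each of the 3 compounds at 20 and 60 min. ACBI1 is a degrader of SMARCA2, SMARCA4 and PBRM1, BRM014 inhibits the ATPase of SMARCA2 and SMARCA4, while for BRDK98 the labels give a code and nothing more. These ATPases, ARID1A and PBRM1 are parts of the SWI/SNF (BAF and PBAF) chromatin remodelling complexes. The labels used here give no compound dose and do not say whether replicates are separate animals or cultures, so p-values measure the spread between these libraries, which may be technical. Cells that were perturbed but not stimulated were not analysed here.

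The deposited TPM values resolved into 7015041 to 27527110 exonic reads per library, so that 3 reads on a 2 kb transcript corresponded to between 0.0654 and 0.298 TPM. The 4 hr control of the 4 hr compound experiment is 1 library, because the column of the second sample repeats the first at all 24537 genes, and every contrast that uses it assumes that it varies like the other groups. All 10 macrophage markers were present in every library (sum of 15820 to 50410 TPM), lymphocyte markers summed to at most 0.436 TPM and dendritic cell markers to at most 9.81 TPM. Granulocyte markers were the highest of the other lists, at 2.22 to 127 TPM. One library stood apart in stromal markers, replicate 1 of the 1 hr control in the 4 hr compound experiment, at 94.98 TPM with Col1a1 at 56.2 TPM against 0.044 TPM in replicate 2. In these bulk samples, fewer cells of a type and less RNA per cell cannot be told apart. Arid1a was at 7.17 and 13.2 TPM in the knockout libraries at 1 hr, against 18.3 and 17.3 TPM in the controls, and at 25.4 and 26.1 against 35.2 and 41.9 TPM at 4 hr; it was called lower at 1 hr and not at 4 hr. Pbrm1 was at 4.54 and 5.03 TPM in the knockout libraries against 15.6 and 14.7 TPM, called on the deposited scale only. The labels used here do not say which exons are deleted, by which Cre, or whether animals were pooled. In the Arid1a experiment the 1 hr samples are labelled polyA RNA and the 0 and 4 hr samples total RNA, while the same mRNA library kit is given for all; whether they were prepared together is not given, so within it a difference between 1 hr and the other times cannot be told apart from that difference in label.

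In unstimulated control cells (8 libraries, from 4 separately normalised tables), Hnrnpa2b1 was the most abundant of the 39 genes, at 133, 181 and 211 TPM (lowest, median and highest), followed by Hnrnpu, which binds nuclear RNA and scaffold DNA, at a median of 111 TPM. Hnrnpl, a binder of CA-rich repeats, had a median of 98.1 TPM, Hnrnpk 83.7 TPM and Hnrnpm 76.9 TPM. Among the kinases, Clk1 was at a median of 83.8 TPM (68.6 to 133), above Clk3 at 37.5, Clk2 at 23.1 and Clk4 at 22.3 TPM; the ranges of Clk2 (19.4 to 29.2 TPM) and Clk4 (18.2 to 30.8 TPM) overlapped. Of the SR proteins, Srsf5 (77.1 TPM) and Srsf2 (74.0 TPM) had the highest medians and Srsf10 the lowest of those named here, 6.11 TPM (4.90 to 8.52), with Srsf6 and Srsf1 both at 38.5 TPM, Srsf7 at 21.4 and Srsf3 at 16.4 TPM. Tra2a was at 36.9 TPM (27.9 to 50.2) and Tra2b at 7.21 TPM (4.82 to 9.13), with no overlap. The LUC7-like genes were ordered Luc7l3 (55.4 TPM), Luc7l2 (32.4 TPM) and Luc7l (15.8 TPM). Hnrnpa1 was listed at only 2.93 TPM and has 9 near-identical pseudogene copies in the GENCODE annotation of GRCm38, so its level is uncertain. Such copies also exist for Hnrnpa3 (23), Hnrnpf (6), Tra2b (4), Srsf3 (3), Srsf10, Hnrnpk (2 each), Hnrnph2, Srsf5, Luc7l2, Hnrnpc and Hnrnpr (1 each). All listed members, including those not tested, together took 0.224% to 0.490% of the listed TPM, with the highest share in the single 4 hr control library.

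A gene was called changed when limma's adjusted p passed 0.05 with the same sign both on log2(TPM + 1) as deposited and on TPM rescaled by the median ratio to a common reference. Log2 changes below are on the deposited scale, which understates the change of low genes, and are given with their standard error (SE). The rescaling matters because the deposited TPM of most genes fell with time, and the median over all tested genes at 4 hr was -0.84, -0.63 and -0.75 in the 4 hr compound, Arid1a and Pbrm1 experiments.

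**Figure D1:**
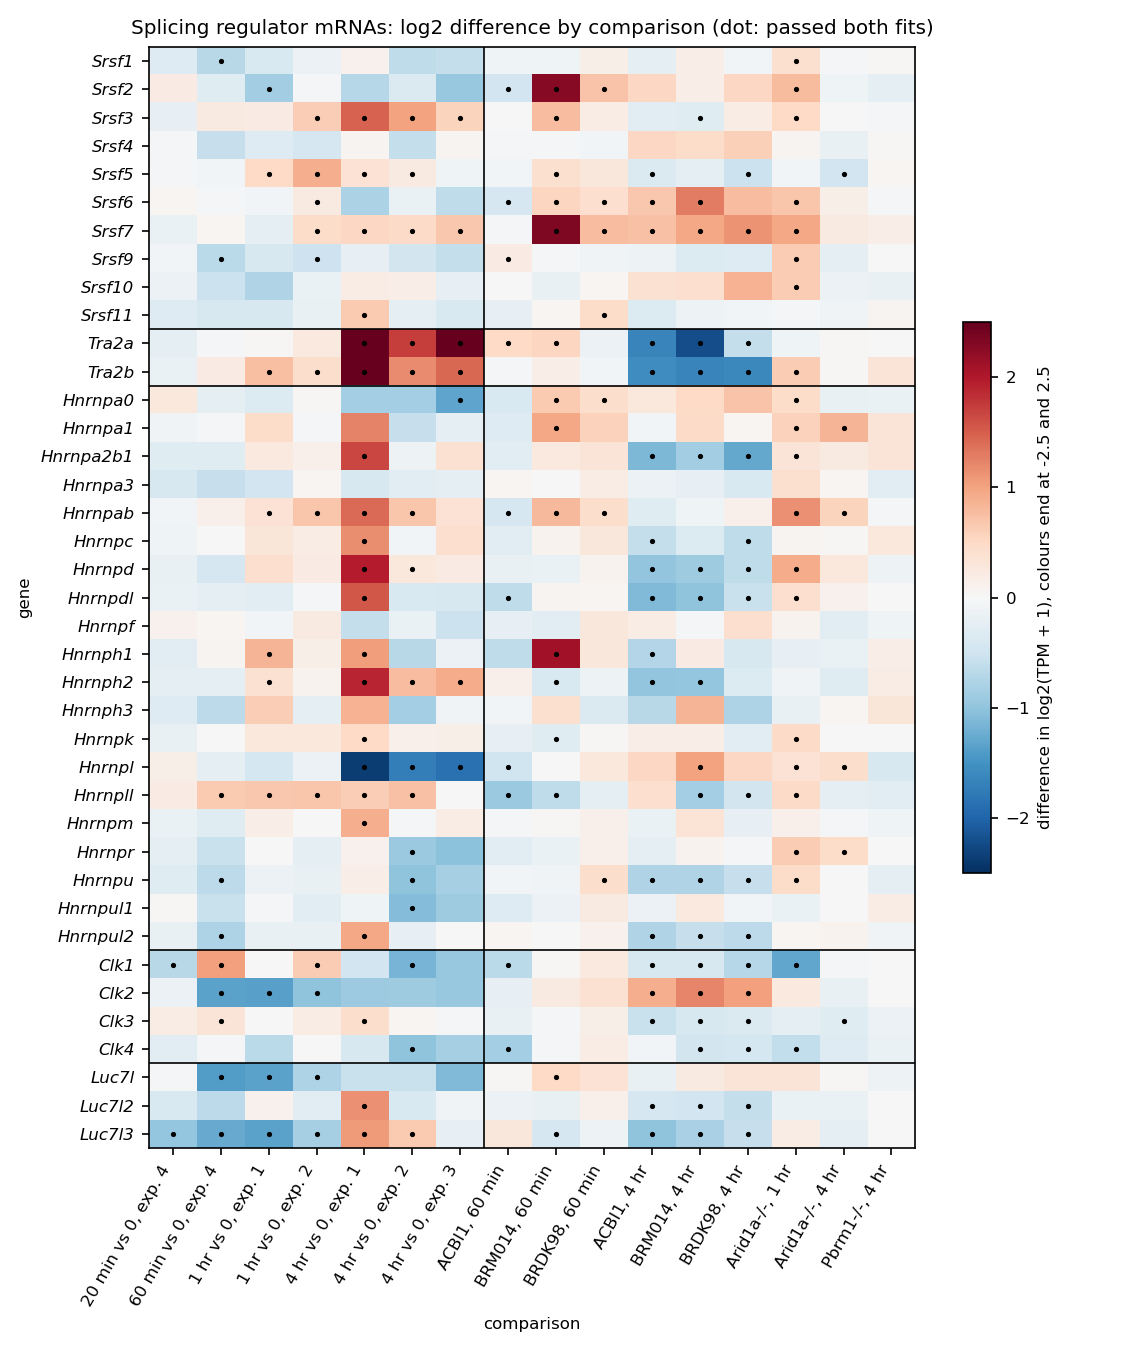
Log2 change of the tested splicing-factor genes (rows, by family) in comparisons of the 4 experiments (columns), on deposited log2(TPM + 1), with called values marked. The Tra2 rows are highest in the 4 hr columns and lower with the compounds at 4 hr, and Srsf2, Srsf7 and Hnrnph1 stand out in the BRM014 column at 60 min.

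Stimulation for 4 hr raised both TRA2 genes in all 3 experiments with that time point. Tra2a encodes a splicing activator that binds GAA-rich exonic enhancers; its gene lies at chr6:49243921-49264052 (mm10, minus strand). Tra2a was at 50.2 and 38.0 TPM before lipid A and at 489.5 TPM in the single 4 hr library of the 4 hr compound experiment. In the Arid1a experiment it went from 37.5 and 41.6 TPM to 145 and 124 TPM, and in the Pbrm1 experiment from 36.2 and 30.8 TPM to 271 and 223 TPM. Every 4 hr control library was thus above every unstimulated one, with log2 changes of 3.46 ± 0.17, 1.74 ± 0.09 and 2.84 ± 0.17 (limma adjusted p = 3.9e-08, 5.0e-08 and 1.7e-06). At 1 hr Tra2a was not called in either experiment (0.04 ± 0.14 and 0.25 ± 0.09), nor at 60 min in the early experiment (-0.05 ± 0.12). The authors' deposited table gave Tra2a log2 changes of 4.52, 2.47 and 3.78 at 4 hr.

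Tra2b, the paralogue with overlapping RNA targets (chr16:22244552-22266005, minus strand), rose from 5.98 and 4.82 TPM to 64.9 TPM in the 4 hr compound experiment. It went from 7.01 and 8.19 to 19.1 and 17.7 TPM in the Arid1a experiment and from 7.82 and 5.52 to 20.5 and 18.3 TPM in the Pbrm1 experiment. The log2 changes were 3.37 ± 0.18, 1.17 ± 0.12 and 1.43 ± 0.19, and the 4 hr and unstimulated libraries did not overlap in any of the 3. Unlike Tra2a, Tra2b was called higher at 1 hr already, by 0.74 ± 0.14 with lipid A and 0.44 ± 0.12 with LPS. At 60 min of lipid A in the early experiment Tra2b was not called (0.20), and neither was Tra2a. Whether the genes differ in timing was not tested. For Tra2a and Tra2b at 4 hr, every alternative setting and every left-out library that gave a value left the call in place.

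Because both TRA2 genes moved together, their promoters are shown, with that of Clk4, which holds the same letters and was not called higher at 4 hr in any of the 3 experiments. The sequences are RefSeq promoters of GRCm38.p6, from 250 bases before to 50 after the start site, 5′ to 3′ on the gene's strand. Capitals mark matches to TGACGTC on either strand, the cAMP response element TGACGTCA without its last base. The genes shown and this shortened form were chosen after their values were seen. The Tra2a sequence is at chr6:49264003-49264302 (minus strand), that of Tra2b at chr16:22265956-22266255 (minus strand) and that of Clk4 at chr11:51262864-51263163 (plus strand).
Tra2a: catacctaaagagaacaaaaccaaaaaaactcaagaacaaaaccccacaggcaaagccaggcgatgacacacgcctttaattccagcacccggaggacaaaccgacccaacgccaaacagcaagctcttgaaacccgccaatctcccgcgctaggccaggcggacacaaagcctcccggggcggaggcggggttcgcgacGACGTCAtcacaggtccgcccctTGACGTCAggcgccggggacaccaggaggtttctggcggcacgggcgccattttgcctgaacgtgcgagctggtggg
Tra2b: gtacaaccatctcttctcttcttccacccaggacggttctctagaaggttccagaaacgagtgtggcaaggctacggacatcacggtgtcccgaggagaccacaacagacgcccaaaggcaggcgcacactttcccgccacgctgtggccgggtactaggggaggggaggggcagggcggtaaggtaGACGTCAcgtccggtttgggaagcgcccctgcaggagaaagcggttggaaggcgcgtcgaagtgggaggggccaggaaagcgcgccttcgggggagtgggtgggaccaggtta
Clk4: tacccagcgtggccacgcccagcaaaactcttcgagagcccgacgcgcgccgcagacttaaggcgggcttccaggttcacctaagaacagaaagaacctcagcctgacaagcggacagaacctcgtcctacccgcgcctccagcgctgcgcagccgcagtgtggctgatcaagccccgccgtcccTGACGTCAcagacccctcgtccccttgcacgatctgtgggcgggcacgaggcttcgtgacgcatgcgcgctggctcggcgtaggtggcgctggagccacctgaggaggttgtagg
The Tra2a promoter holds 2 such runs, starting 50 and 27 bases before the start site, the latter a full TGACGTCA; the Tra2b run starts 63 bases before and the Clk4 run, also a full element, 65 bases before. TGACGTC was present in 5 of the 37 genes with a promoter sequence (Clk4, Hnrnpm, Srsf6, Tra2a and Tra2b; 13.5%), against 3.6% of all 27025 promoters of that length, and TGACGTCA in 2 (5.4% against 2.0%). The NF-kB motif was in none of the 37 (0.5% of all), the AP-1 motif TGANTCA in 1 (2.7% against 9.0%), the E2F motif TTTCCCGC in 5 (13.5% against 1.2%), the ETS motif CCGGAAGT in 5 (13.5% against 4.3%) and the E-box CACGTG in 6 (16.2% against 8.1%), counted on both strands. The members' promoters had a median GC content of 65.0% and 28 CpG dinucleotides, against 52.7% and 7 over all genes with a promoter. A match is a run of letters, not a measured binding site.

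**Figure D2:**
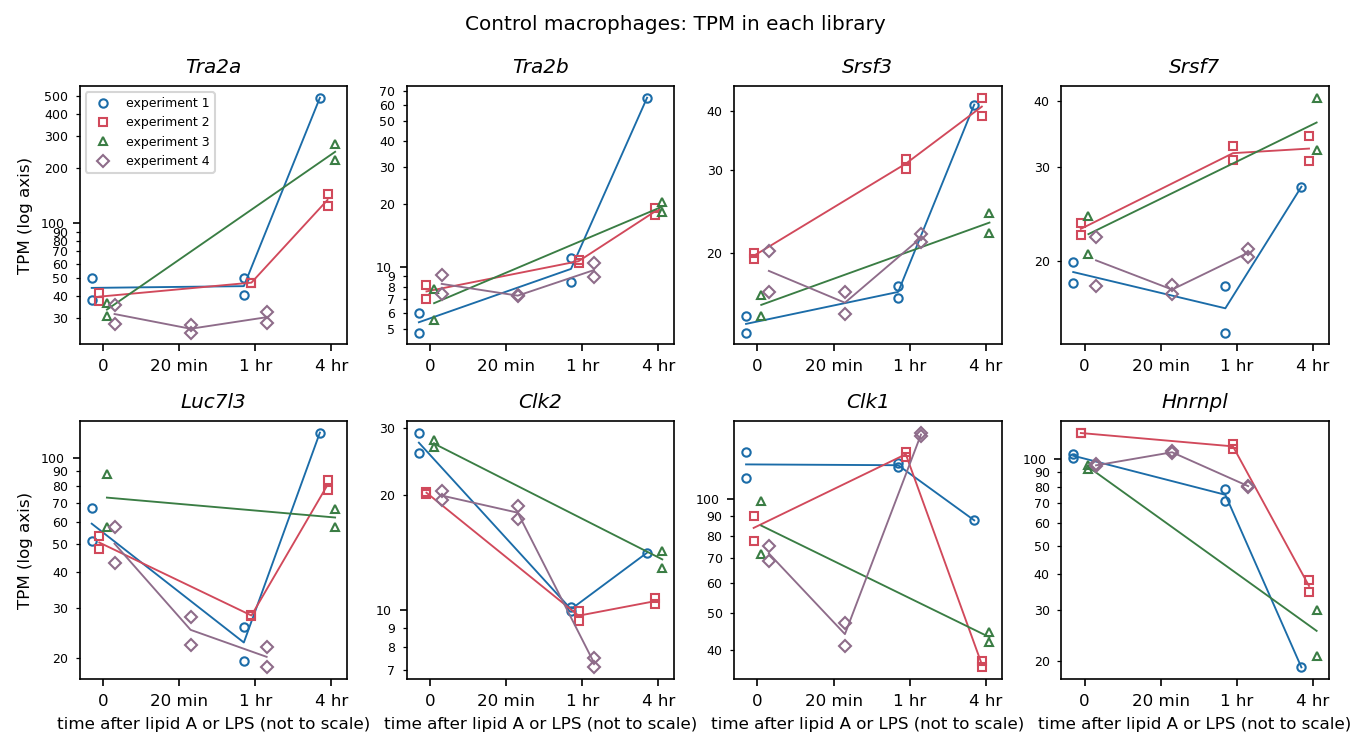
TPM (log axis) of 8 splicing-factor genes in control libraries against time of stimulation, each point 1 library and colours the 4 experiments. Tra2a and Tra2b are highest at 4 hr in all 3 experiments sampled then, Hnrnpl is lowest there, and Clk2 and Luc7l3 are already low at 1 hr or 60 min.

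Over all families, 20 of the 39 genes were called higher and 1 lower at 4 hr in the 4 hr compound experiment, where 57.5% of all tested genes were called in either direction and 20.1% were higher. On deposited TPM alone 20 were higher and 9 lower, and on rescaled TPM alone 31 and 1. In the Arid1a experiment 10 were higher and 6 lower (53.4% of all genes called), with 10 and 19 on deposited and 23 and 6 on rescaled values. In the Pbrm1 experiment 5 were higher and 2 lower (46.6% called, 16% higher), with 5 and 15 on deposited and 22 and 2 on rescaled values. The balance of higher and lower genes thus turns with the scaling in the Arid1a and Pbrm1 experiments. The median log2 change of the 39 genes was 0.49, -0.22 and -0.20, each above the median over all genes given above. The authors' deposited tables list 31 members with positive and 1 with negative adjusted changes, then 22 and 6, and 21 and 2.

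Besides the TRA2 genes, Srsf3, Srsf7 and Hnrnph2 were higher and Hnrnpl lower at 4 hr in all 3 experiments. These 5 higher genes are 12.8% of the 39, against 12.7% of the 10528 genes tested in all 3, so the share is that of the background, while the 1 lower gene is 2.56% against 23.4%. Hnrnpl (chr7:28810890-28822266, plus strand), a regulator of exon inclusion in immune cells, fell from 101 and 104 TPM to 19.0 TPM, from 123 and 122 to 34.7 and 37.9 TPM, and from 92.0 and 95.2 to 20.7 and 30.0 TPM. Its log2 changes were -2.37 ± 0.10, -1.73 ± 0.08 and -1.87 ± 0.20 (limma adjusted p = 1.6e-08, 9.9e-09 and 3.6e-05). An exon of the gene Gm44702 on the other strand overlaps Hnrnpl, and the counts joined both strands.

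Srsf3, the smallest SR protein, rose from 13.5 and 14.7 to 41.3 TPM, from 19.4 and 20.0 to 42.7 and 39.1 TPM, and from 16.3 and 14.7 to 24.3 and 22.1 TPM (log2 1.48 ± 0.11, 1.01 ± 0.14 and 0.55 ± 0.16). The transcript listed for Srsf3 in the 4 hr compound experiment is a RefSeq non-coding one, and which Srsf3 transcripts rose was not tested. Hnrnph2, a binder of G-runs encoded on the X chromosome, rose by 1.90 ± 0.15, 0.78 ± 0.10 and 0.93 ± 0.18. Srsf7, a zinc-knuckle SR protein involved in mRNA export, rose by 0.51 ± 0.13, 0.48 ± 0.11 and 0.67 ± 0.17. In the Pbrm1 experiment, Srsf3 and Srsf7 lost their calls when replicate 2 of the unstimulated control was left out, which left 4 genes called.

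Other changes at 4 hr were called in some experiments only, and the difference between experiments cannot be tested across separately normalised tables. In the 4 hr compound experiment the hnRNPs with the largest increases were Hnrnpd (AUF1, which binds AU-rich elements; 1.96 ± 0.24), Hnrnpa2b1 (1.67 ± 0.14), Hnrnpdl (1.56 ± 0.19) and Hnrnpab (1.41 ± 0.12). Hnrnpa2b1 was at 140.4 and 133 TPM before lipid A and 437 TPM in the single 4 hr library, but changed by -0.13 ± 0.07 in the Arid1a and 0.37 ± 0.17 in the Pbrm1 experiment, neither called. In that experiment Hnrnpm (0.92 ± 0.10), Hnrnpk (0.49 ± 0.14), Luc7l2 (1.14 ± 0.12) and Luc7l3 (1.06 ± 0.19) were also higher. With LPS in the Arid1a experiment, Hnrnpll (0.72 ± 0.10), Hnrnpab (0.69 ± 0.08) and Luc7l3 (0.66 ± 0.08) rose, and Clk1 (-1.17 ± 0.10), Hnrnpul1 (-1.08 ± 0.14), Hnrnpu (-1.01 ± 0.07), Clk4 (-1.003 ± 0.11) and Hnrnpr (-0.93 ± 0.12) fell. In the Pbrm1 experiment the second gene called lower, after Hnrnpl, was Hnrnpa0, from 26.2 and 26.9 to 9.64 and 10.5 TPM (-1.31 ± 0.15).

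At 1 hr of lipid A 6 of the 39 were higher and 4 lower (29.1% of all genes called, 9.9% higher), at 1 hr of LPS 8 and 4 (33.8%, 13.6% higher), and at 60 min in the early experiment 3 and 7 (25.5%, 7.47% higher), so the shares of 25.6%, 30.8% and 25.6% are near the background. On rescaled TPM alone the numbers were 21 and 4, 15 and 4, and 14 and 7, and on deposited TPM alone 6 and 12, 8 and 5, and 3 and 21. Clk2, Luc7l and Luc7l3 were lower and Hnrnpll higher in all 3 experiments; 7.69% of the members were lower in all 3 against 9.78% of 10703 genes.

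Clk2, a kinase of SR proteins (chr3:89164795-89177087, plus strand), fell from 29.2 and 25.8 to 10.2 and 9.96 TPM at 1 hr of lipid A. It fell from 20.2 and 20.4 to 9.41 and 9.97 TPM with LPS, and from 20.5 and 19.4 to 7.10 and 7.52 TPM at 60 min, with log2 changes of -1.36 ± 0.12, -0.997 ± 0.09 and -1.34 ± 0.11. No 1 hr or 60 min control library reached the unstimulated level. Luc7l changed by -1.34 ± 0.16, -0.76 ± 0.11 and -1.39 ± 0.16 and Luc7l3 by -1.34 ± 0.15, -0.82 ± 0.08 and -1.26 ± 0.15, while their paralogue Luc7l2 was called in none (0.11 ± 0.10, -0.29 ± 0.12 and -0.65 ± 0.16). Luc7l3 at 4 hr was above its 1 hr level in both experiments sampled at both times, 123 TPM against 25.8 and 19.6 TPM, and 83.7 and 77.5 TPM against 28.1 and 28.4 TPM. Hnrnpll, which in lymphocytes controls the splicing of Ptprc (CD45), rose by 0.67 ± 0.08, 0.69 ± 0.10 and 0.66 ± 0.11.

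Clk1 moved in opposite directions within the first hour. This kinase (chr1:58411988-58424088, minus strand) has a retained-intron transcript that its own activity is known to influence. In the early experiment Clk1 was at 75.0 and 68.6 TPM unstimulated, at 47.2 and 40.9 TPM at 20 min and at 149 and 146 TPM at 60 min. The 3 pairs of libraries did not overlap, and both changes from 0 min were called, -0.69 ± 0.09 at 20 min and 1.03 ± 0.09 at 60 min (limma adjusted p = 1.0e-03 and 7.9e-07). With LPS it rose from 77.6 and 89.9 to 129 and 133 TPM at 1 hr (0.64 ± 0.10) and was at 37.3 and 36.0 TPM at 4 hr. In the 4 hr compound experiment it was at 133 and 113 TPM unstimulated and 121 and 124 TPM at 1 hr, with no change called on deposited TPM (0.00 ± 0.09). The rescaling divides TPM there by 1.38 and 1.35 in the unstimulated and by 1.03 and 0.962 in the 1 hr libraries, so rescaled Clk1 was higher at 1 hr. The early rise was thus called on both scalings in 2 of 3 experiments, and its absence in the third depends on the scaling. The related Clk4 did not follow: it changed by -0.67 ± 0.11, 0.01 ± 0.11 and -0.05 ± 0.09 at 1 hr or 60 min, none called on both scalings.

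At 20 min 2 of the 39 genes were called, both lower, where 1.08% of all genes were called and 0.346% were lower. These were Clk1 and Luc7l3, the latter from 57.4 and 43.1 to 28.0 and 22.3 TPM (-0.97 ± 0.15, limma adjusted p = 4.6e-03). Leaving out replicate 1 of the 0 min control or replicate 2 of the 20 min control ended the Luc7l3 call. At an unadjusted limma p under 0.05 on deposited TPM 14 of the 39 genes passed at 20 min, beside 17.9% of all tested genes.

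Of the remaining SR proteins, Srsf5 was higher at 1 hr of lipid A (0.50 ± 0.09) and LPS (0.90 ± 0.09; 42.1 and 43.8 to 81.6 and 81.0 TPM), but changed by -0.08 ± 0.08 at 60 min. Srsf2 was lower at 1 hr of lipid A (-0.88 ± 0.11), Srsf9 at 1 hr of LPS (-0.53 ± 0.11) and at 60 min (-0.68 ± 0.07), and Srsf1 at 60 min (-0.69 ± 0.09). Srsf2 was not called lower at 1 hr of LPS or at 60 min. The authors' deposited log2 changes of Srsf2 were -0.45 at 1 hr of lipid A, 0.15 at 1 hr of LPS and 0.09 at 60 min. Hnrnph1 was higher at 1 hr of lipid A (0.84 ± 0.14), at 131 and 91.4 TPM against 64.7 and 56.5 TPM. The 131 TPM belong to the library with stromal transcripts; without it 8 genes remained called at 1 hr, the 2 lost being Hnrnpab and Hnrnph2. At 60 min Hnrnpul2 (-0.76 ± 0.09) and Hnrnpu (-0.66 ± 0.09) were also lower and Clk3 higher (0.33 ± 0.07). Cox20, which overlaps Hnrnpu on the other strand, was at a mean of 19.7 TPM at 60 min against 35.5 TPM unstimulated (-0.79, passing on deposited TPM only), and Mfsd11, which overlaps Srsf2, was called lower at 1 hr of lipid A (-1.08); the part of these overlaps was not tested.

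With BRM014 at 60 min of lipid A, 3 of the genes were at several times the control level. Srsf2 (SC35), a component of nuclear speckles, was at 242 and 326 TPM with BRM014 against 56.6 and 58.5 TPM in control cells (2.27 ± 0.11, limma adjusted p = 3.0e-09). Srsf7 was at 97.6 and 121 TPM against 20.3 and 21.04 TPM (2.34 ± 0.11, limma adjusted p = 2.8e-09). Hnrnph1, the paralogue of Hnrnph2, was at 206 and 359.7 TPM against 61.9 and 64.1 TPM (2.09 ± 0.20, limma adjusted p = 6.0e-06). In all 3 genes both BRM014 libraries were above every other library of that experiment, and every alternative and left-out library kept the calls, with log2 changes of 2.05 to 2.48 for Srsf2, 2.18 to 2.49 for Srsf7 and 1.69 to 2.495 for Hnrnph1. At 20 min the same genes differed from control by 0.16 ± 0.11, 0.14 ± 0.11 and -0.13 ± 0.20 with BRM014, and the difference between the 60 and 20 min effects was 2.10 ± 0.15, 2.19 ± 0.16 and 2.23 ± 0.29, all 3 called.

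The 3 genes lie apart, Srsf2 and Hnrnph1 at chr11:116849897-116853094 and chr11:50377719-50386528 and Srsf7 at chr17:80200080-80207305. The exons of Srsf2 overlap Mettl23 and Mfsd11 on the other strand, and these changed by 0.17 and 0.25 with BRM014 at 60 min, of which Mfsd11 was called. Srsf7 and Hnrnph1 overlap no annotated exon of another gene. Srsf7 has annotated transcripts subject to nonsense-mediated decay in GENCODE, as do 28 of the 39 tested members (71.8%; 29.9% of 11322 tested protein-coding genes), while Hnrnph1 has none; which transcripts were present cannot be read from gene-level TPM.

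**Figure D3:**
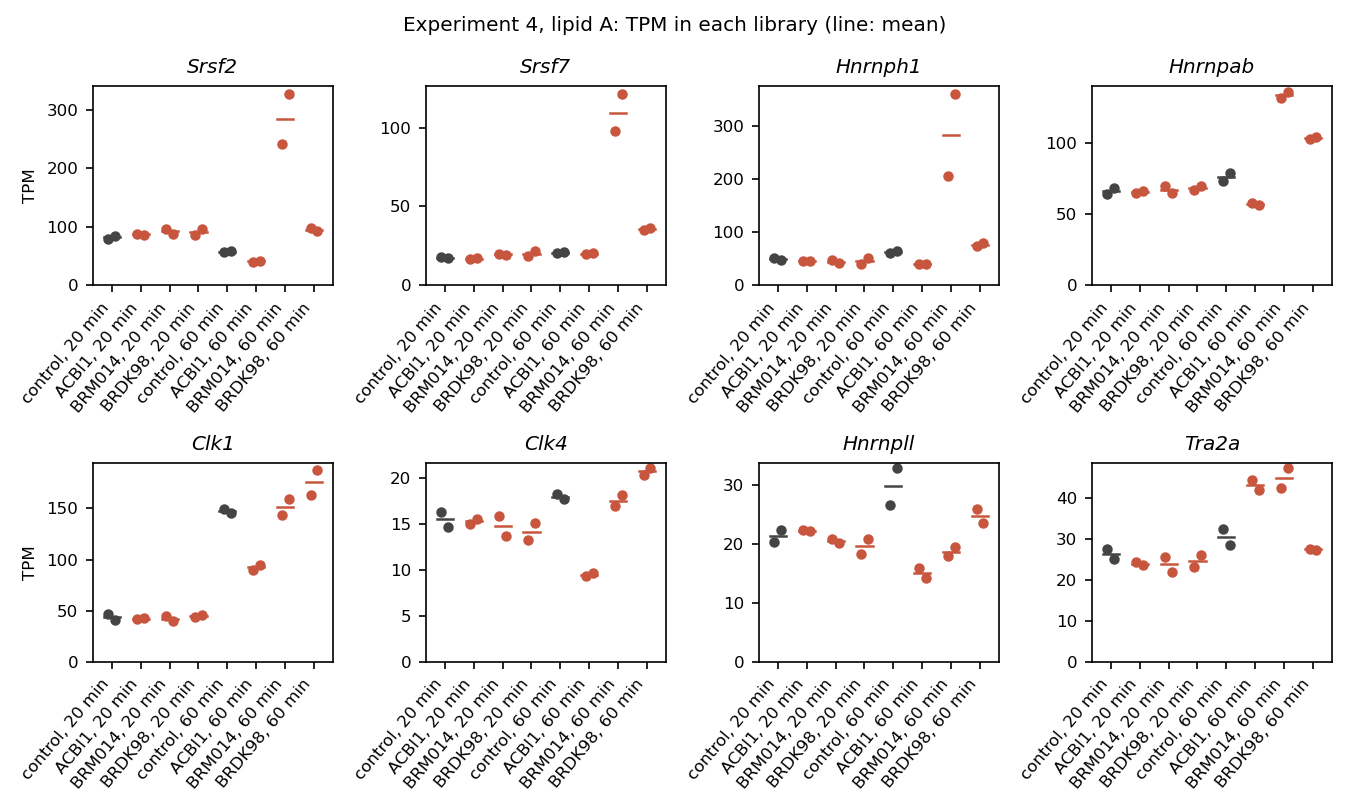
TPM of 8 genes in the early compound experiment, each point 1 library, by time of lipid A (20 and 60 min) and treatment. With BRM014 at 60 min Srsf2, Srsf7 and Hnrnph1 lie above all other libraries, and with ACBI1 at 60 min Clk1, Clk4 and Hnrnpll lie below the 60 min control.

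In all, 11 of the 39 genes were higher and 4 lower with BRM014 at 60 min (30.2% of all genes called, 16.8% higher). The replicates of BRM014 at 60 min differed in Arid1a (7.66 and 19.0 TPM) and Pbrm1 (6.64 and 13.7 TPM). They also differed in the members' share of listed TPM (0.357% and 0.434%). The part of that difference in these counts was not tested. The authors' deposited table lists 7 members with positive and 1 with negative adjusted changes for BRM014 at 60 min, 4 and 8 for ACBI1, and 8 and 1 for BRDK98. Smaller increases were seen in Hnrnpa1 (0.97 ± 0.19), Hnrnpab (0.81 ± 0.08), Srsf3 (0.77 ± 0.10; 38.7 and 36.0 against 21.1 and 21.9 TPM), Hnrnpa0 (0.65 ± 0.10), Tra2a (0.55 ± 0.12) and Srsf6 (0.54 ± 0.07). Phykpl, which overlaps Hnrnpab on the other strand, was higher too, at a mean of 6.12 against 4.10 TPM, and its part in the Hnrnpab result was not tested. The 4 lower genes were Hnrnpll (-0.64 ± 0.11), Luc7l3 (-0.42 ± 0.15), Hnrnph2 (-0.37 ± 0.12) and Hnrnpk (-0.30 ± 0.09), so that Hnrnph1 and Hnrnph2 went opposite ways. None of the 4 CLK kinases was called with BRM014 at 60 min; Clk1 was at 143 and 159 TPM against 149 and 146 TPM.

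With ACBI1 at 60 min 2 genes were higher and 8 lower, 25.6% of the members against 25.2% of all genes called, so near the background. By direction, 5.13% of the members were higher against 11.6% of all genes, and 20.5% lower against 13.7%. On deposited TPM alone 14 members were lower, and on rescaled TPM alone 5 were higher and 8 lower. Clk1 was at 90.0 and 95.02 TPM against 149 and 146 TPM (-0.67 ± 0.09) and Clk4 at 9.29 and 9.62 against 18.2 and 17.7 TPM (-0.86 ± 0.09), with no overlap in either gene. Hnrnpll was at 15.9 and 14.2 TPM against 26.7 and 32.9 TPM (-0.94 ± 0.11), below both unstimulated libraries (19.5 and 17.3 TPM). Hnrnpdl (-0.63 ± 0.09), Hnrnpl (-0.50 ± 0.05), Srsf2 (-0.48 ± 0.11), Srsf6 (-0.42 ± 0.07) and Hnrnpab (-0.41 ± 0.08) were also lower. Tra2a was higher, at 44.4 and 42.0 TPM against 32.5 and 28.5 TPM (0.49 ± 0.12), as was Srsf9 (0.21 ± 0.07). The 8 granulocyte markers summed to 71.8 and 76.5 TPM with ACBI1 against 98.4 and 109.9 TPM, with 2 called lower, and the only tested dendritic cell marker was called higher; their part in these changes was not tested. The ACBI1 effect at 60 min differed from that at 20 min in 8 genes (18.5% of all genes), among them Hnrnpll (-0.999 ± 0.15), Clk4 (-0.84 ± 0.13) and Clk1 (-0.61 ± 0.13). Leaving out either 60 min control lowered the count of 10 at 60 min to 6, and 7 of the 8 libraries behind the contrast of times lowered its count to between 3 and 5 when left out.

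With BRDK98 at 60 min 7 genes were higher and none lower (11.6% of all genes called, 6.05% higher; 11 higher on deposited and 7 higher and 1 lower on rescaled TPM alone). Srsf7 was at 35.1 and 36.5 TPM (0.76 ± 0.11) and Srsf2 at 97.3 and 92.4 TPM (0.71 ± 0.11), each between the control and the BRM014 libraries. Srsf11 (0.46 ± 0.10), Hnrnpab (0.44 ± 0.08), Hnrnpu (0.44 ± 0.09), Hnrnpa0 (0.43 ± 0.10) and Srsf6 (0.41 ± 0.07) were the others. The effects differed between 60 and 20 min in 10 genes with BRM014 (13.3% of all genes) and in 4 with BRDK98 (6.66%). Without replicate 1 of the 60 min control 4 genes were called with BRDK98, without replicate 1 of the 20 min control 6 differed by time with BRM014, and 7 of 8 left-out libraries lowered the 4 of BRDK98 to 1 or 2.

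At 20 min no member was called with any compound, where 0.147% of all genes were called with ACBI1, 0.39% with BRM014 and 1.33% with BRDK98. Unadjusted limma p-values on deposited TPM were under 0.05 in 2, 4 and 5 members, beside 5.84%, 9.19% and 11.6% of all genes. The members were thus near the background, and voom on recovered reads called 0 in each. The estimates ranged from -0.23 (Hnrnph2) to 0.46 (Hnrnpa1) with ACBI1, from -0.28 (Hnrnph2) to 0.27 (Hnrnpa1) with BRM014 and from -0.37 (Luc7l2) to 0.46 (Hnrnpa1) with BRDK98. In the authors' deposited table the numbers called at 20 min were 0 with ACBI1, 0 with BRM014 and 1, negative, with BRDK98.

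Compared directly at 60 min, BRM014 exceeded ACBI1 in 14 genes and was below it in 3 (47.8% of all genes called), led by Srsf2 (2.75 ± 0.11), Hnrnph1 (2.72 ± 0.20) and Srsf7 (2.37 ± 0.11). Hnrnpa1 (1.28 ± 0.19), Hnrnpab (1.22 ± 0.08), Hnrnpa0 (1.02 ± 0.10), Clk4 (0.83 ± 0.09) and Clk1 (0.70 ± 0.09) were also higher with BRM014, and Luc7l3 (-0.70 ± 0.15), Hnrnph2 (-0.50 ± 0.12) and Srsf9 (-0.24 ± 0.07) lower. BRDK98 exceeded ACBI1 in 18 genes and was below it in 3 (35% of all genes), with Srsf2 (1.19 ± 0.11), Clk4 (1.05 ± 0.09) and Clk1 (0.91 ± 0.09) first and Tra2a lower (-0.63 ± 0.12). Between BRDK98 and BRM014, 7 genes were higher and 7 lower (26.8%), and Hnrnph1 (-1.82 ± 0.20), Srsf7 (-1.58 ± 0.11) and Srsf2 (-1.56 ± 0.11) were lower with BRDK98; without replicate 1 of BRDK98 the count of 14 was 8. The compounds were compared at the same time of lipid A, with doses not given in the labels.

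At 4 hr all 3 compounds were set against the single control library, and these contrasts share it. With ACBI1 3 members were higher and 15 lower (33.4% of all genes called, 13.5% lower), with BRM014 4 and 15 (42.8%, 16.4% lower) and with BRDK98 2 and 15 (34.5%, 12.4% lower). On rescaled TPM alone 26, 25 and 28 members were lower, and on deposited TPM alone 15 in each, with 7, 7 and 9 higher. The median over all genes was 0.25, 0.43 and 0.46 on the deposited scale. The members' share of listed TPM was highest in the lone control library, and a second library of that group was not analysed here. With BRM014 at 4 hr the 6 dendritic cell markers summed to 9.67 and 9.81 TPM against 2.37 TPM in the control, and the 8 granulocyte markers to 14.1 and 12.9 against 4.75 TPM. In each list 1 gene was called higher with BRM014 and none lower, and the part of these markers in the changes was not tested.

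Tra2a was at 166 and 145 TPM with ACBI1, 99.9 and 109 TPM with BRM014 and 329.9 and 317 TPM with BRDK98, against 489.5 TPM in the control and 50.2 and 38.0 TPM before lipid A. All 6 compound libraries were below the control and above both unstimulated libraries, with log2 differences from control of -1.65 ± 0.17, -2.22 ± 0.17 and -0.60 ± 0.17. The contrasts among compounds do not use the control, and there Tra2a was lower with BRM014 than with ACBI1 (-0.57 ± 0.14) and higher with BRDK98 than with ACBI1 (1.05 ± 0.14) or BRM014 (1.63 ± 0.14). Tra2b was between 18.3 and 22.4 TPM in all 6 compound libraries against 64.9 TPM (-1.55 ± 0.18, -1.66 ± 0.18 and -1.61 ± 0.18), beside 17.7 to 20.5 TPM in the 4 hr controls of the Arid1a and Pbrm1 experiments, whose tables were normalised separately. No Tra2b difference between compounds was called.

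The 4 hr rise of Hnrnpa2b1 in control cells was called only in this experiment, with its single 4 hr control library, and not in the Arid1a or Pbrm1 experiment. Against that library Hnrnpa2b1 was lower with each compound at 4 hr (-1.13 ± 0.14, -0.87 ± 0.14 and -1.28 ± 0.14), as were Hnrnpd (-0.99 ± 0.24, -0.89 ± 0.24 and -0.64 ± 0.24), Hnrnpdl (-1.10 ± 0.19, -1.01 ± 0.19 and -0.56 ± 0.19) and Luc7l3 (-0.997 ± 0.19, -0.82 ± 0.19 and -0.58 ± 0.19). Clk2 went the other way, at 26.4 and 28.2 TPM with ACBI1, 38.2 and 31.0 TPM with BRM014 and 31.7 and 28.1 TPM with BRDK98 against 14.2 TPM in the control. Those values reach the unstimulated level of 29.2 and 25.8 TPM, and the log2 differences were 0.90 ± 0.14, 1.22 ± 0.14 and 1.02 ± 0.14. With BRDK98 the Clk2 call was lost without the filter on low values and without replicate 1 of that compound. Srsf7 was higher with each compound (0.73 ± 0.13, 0.96 ± 0.13 and 1.11 ± 0.13), while Srsf2 (0.17 ± 0.13) and Hnrnph1 (0.21 ± 0.17), raised by BRM014 at 60 min, were not called with BRM014 at 4 hr.

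**Figure D4:**
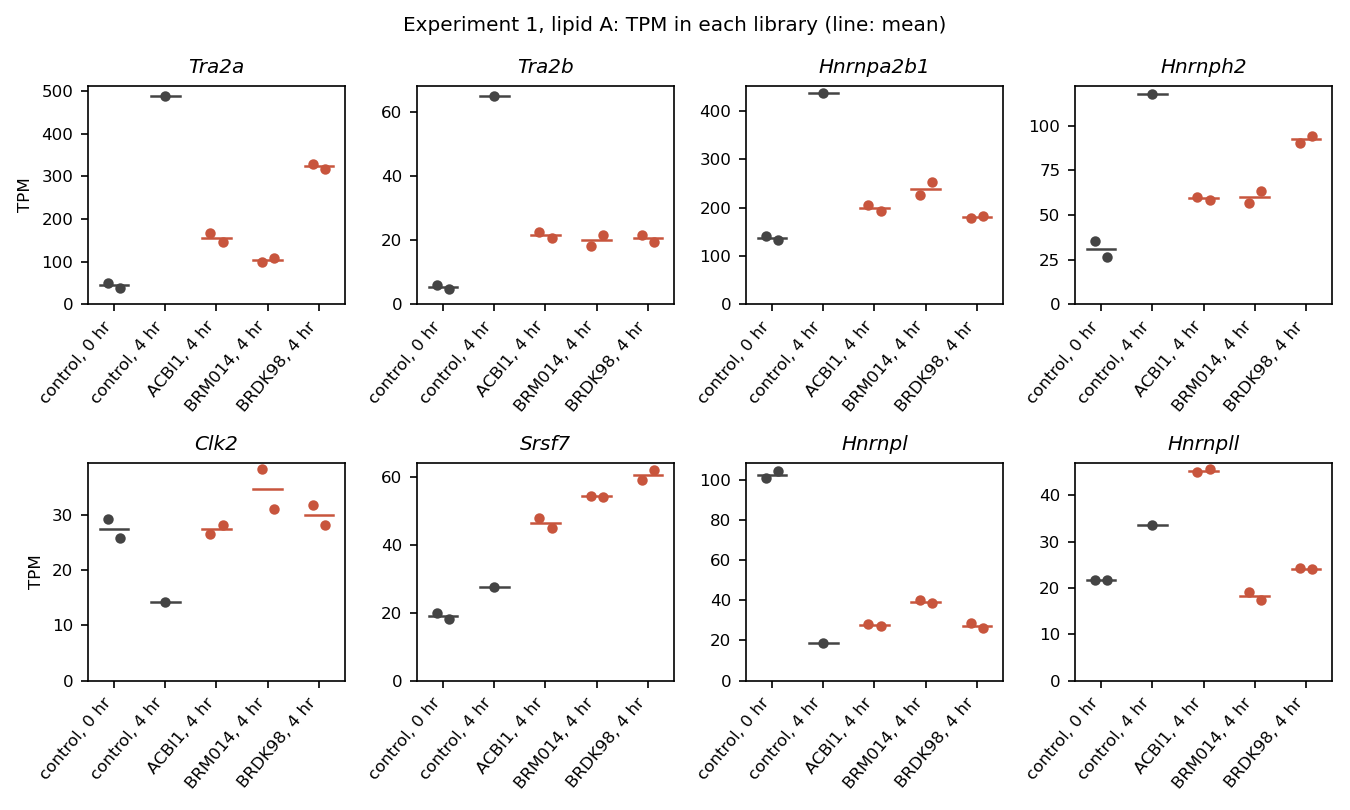
TPM of 8 genes in the 4 hr compound experiment, each point 1 library. Wild-type controls at 0 and 4 hr of lipid A are beside the compound-treated groups at 4 hr, and the 4 hr control has 1 library. Tra2a, Tra2b and Hnrnpa2b1 are highest in that library, and Clk2 and Srsf7 are higher with each compound than in it.

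Some 4 hr differences among compounds involved other members. In either direction, none of these contrasts called a larger share of the members than of all genes. With BRM014 against ACBI1 5 genes were higher and 4 lower (23.1% of the members, 30.3% of all genes). The counts were 2 and 4 with BRDK98 against ACBI1 (15.4%, 36.5%) and 7 and 10 with BRDK98 against BRM014 (43.6%, 45.2%). Leaving out 1 library lowered these counts to between 2 and 6, 2 and 4, and 9 and 11; the lowest were without replicate 1 of BRM014, without replicate 1 of ACBI1 or replicate 2 of BRDK98, and without either BRDK98 replicate. Hnrnpll was at 45.0 and 45.7 TPM with ACBI1, 19.2 and 17.5 TPM with BRM014 and 24.3 and 24.1 TPM with BRDK98 (-1.26 ± 0.08 for BRM014 and -0.88 ± 0.08 for BRDK98 against ACBI1). At 60 min the order was different, with Hnrnpll lower in the ACBI1 libraries than with BRDK98, but the tables were normalised separately and the change of order was not tested. Hnrnph3 was at 31.8 and 29.4 TPM with BRM014 and between 8.71 and 10.8 TPM with the other compounds (1.54 ± 0.32 against ACBI1 and -1.62 ± 0.32 for BRDK98 against BRM014). Rufy2, which overlaps Hnrnph3 on the other strand, was higher with BRM014 than with ACBI1 too, at a mean of 8.57 against 3.77 TPM (1.01), and was not called between BRDK98 and BRM014; the counts joined both strands, and its part in the result was not tested. Hnrnph1 was also highest with BRM014 (0.95 ± 0.14 against ACBI1), as was Srsf6, at 59.7 and 57.1 TPM (0.60 ± 0.11). Hnrnpl, which fell with lipid A, was at 40.1 and 38.4 TPM with BRM014 against 19.0 TPM in the control (1.01 ± 0.10).

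In Arid1a-/- cells at 1 hr of LPS 19 of 39 genes were higher and 2 lower (35.5% of all genes called, 18.7% higher). The higher genes were 11 of 20 hnRNPs, 7 of 10 SR proteins and Tra2b, and both lower genes were CLK kinases. The authors' deposited table lists fewer higher members for the knockout at 1 hr, 12 with positive and 2 with negative adjusted changes, and 4 and 5 at 4 hr. Clk1 was at 50.48 and 54.8 TPM in Arid1a-/- cells against 129 and 133 TPM in Arid1a f/f cells (-1.30 ± 0.10, limma adjusted p = 1.0e-05), below the unstimulated control libraries (77.6 and 89.9 TPM). Clk4 was at 15.2 and 13.7 TPM against 23.0 and 22.3 TPM (-0.61 ± 0.11), while Clk2 and Clk3 were not called. Of the 10 macrophage markers, summing to 17180 and 17450 TPM against 22600 and 22370 TPM, 1 was called higher and 6 lower in this comparison, and their part in it was not tested. Both calls stayed in place under each alternative setting and without each library.

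Hnrnpab showed the largest increase in Arid1a-/- cells at 1 hr, at 224 and 197 TPM against 97.3 and 91.6 TPM (1.15 ± 0.08). Srsf7 was at 71.4 and 56.4 TPM against 32.8 and 30.9 TPM (0.97 ± 0.11), Hnrnpd at 25.0 and 23.7 TPM against 12.3 and 12.3 TPM (0.93 ± 0.09) and Srsf2 at 135 and 137 TPM against 80.5 and 75.9 TPM (0.79 ± 0.09). In these 4 genes the groups did not overlap. Srsf6 (0.70 ± 0.08), Srsf9 (0.64 ± 0.11), Srsf10 (0.64 ± 0.12), Tra2b (0.64 ± 0.12), Srsf3 (0.50 ± 0.14), Hnrnpll (0.49 ± 0.10), Hnrnpk (0.49 ± 0.11), Hnrnpu (0.46 ± 0.07) and Srsf1 (0.41 ± 0.09) were higher by less. Tra2a was not called (-0.11 ± 0.09). The count of 21 moved to 12 without replicate 2 of the 1 hr control and to 25 without replicate 2 of the knockout; of the knockout libraries, replicate 1 had the lower Arid1a and the higher Srsf7 and Srsf3, and the part of that difference in the result was not tested.

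**Figure D5:**
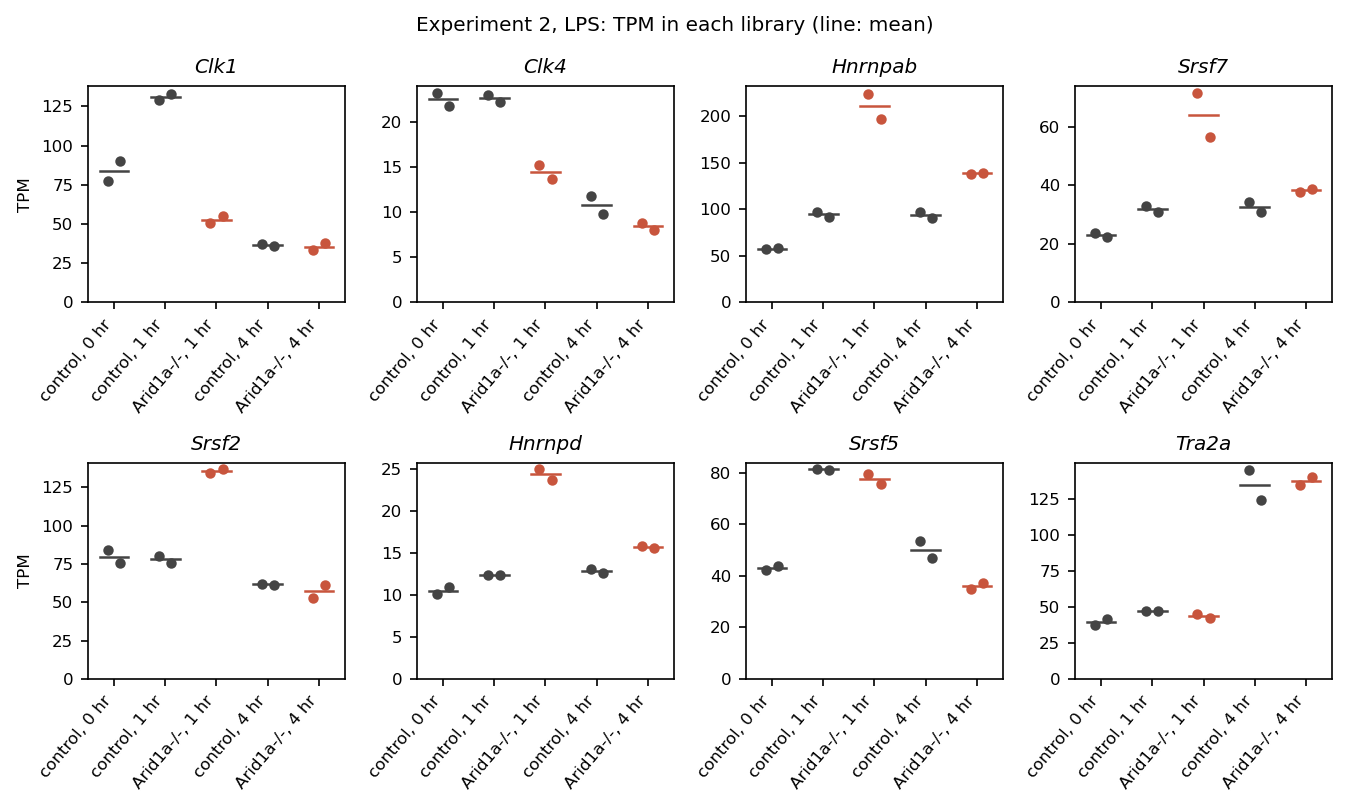
TPM of 8 genes in Arid1a f/f control and Arid1a-/- macrophages by time of LPS, each point 1 library. At 1 hr the knockout libraries are below the controls for Clk1 and Clk4 and above them for Hnrnpab, Srsf7, Srsf2 and Hnrnpd; at 4 hr the genotypes are closer.

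At 4 hr of LPS 4 genes were higher and 2 lower in Arid1a-/- cells (24.8% of all genes called; 5 and 2 on deposited and 4 and 9 on rescaled TPM alone). Hnrnpab remained higher, at 138 and 139 TPM against 96.8 and 90.7 TPM (0.56 ± 0.08), with Hnrnpa1 (0.86 ± 0.16), Hnrnpr (0.46 ± 0.12) and Hnrnpl (0.43 ± 0.08). Phykpl, on the other strand over Hnrnpab, was higher in this comparison as well, at a mean of 4.25 against 3.01 TPM (0.39), and its part in the result was not tested. Srsf5 was lower, at 34.7 and 37.1 TPM against 53.3 and 46.9 TPM (-0.47 ± 0.09), as was Clk3 (-0.30 ± 0.10). Clk1 was at 33.1 and 37.7 TPM against 37.3 and 36.0 TPM, so the genotypes overlapped. The genotype effect itself differed between 4 and 1 hr in 14 members (15.9% of all genes), higher in 1 (7.79% of all genes) and lower in 13 (8.11%): Clk1 by 1.25 ± 0.14, Srsf2 by -0.90 ± 0.13, Srsf9 by -0.88 ± 0.15, Srsf10 by -0.78 ± 0.17 and Srsf7 by -0.74 ± 0.16 among them. This count was 5 without replicate 2 of the 1 hr control, 8 without its replicate 1 or replicate 1 of the 4 hr knockout, and 9 without replicate 1 of the 4 hr control.

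No member was called in Pbrm1-/- cells at 4 hr of lipid A, where 0.00905% of all tested genes were called. No member passed an unadjusted limma p of 0.05 on deposited TPM, voom on recovered reads called 0, and the authors' deposited table also lists none. The log2 differences lay between -0.39 (Hnrnpl) and 0.32 (Hnrnpa2b1), with SE of 0.17 for Hnrnpa2b1 and 0.17 for Tra2a. Tra2a was at 264 and 228 TPM in Pbrm1-/- cells against 271 and 223 TPM, and Tra2b at 25.2 and 23.6 TPM against 20.5 and 18.3 TPM. With 3 residual degrees of freedom, differences of this size could not be told from the spread between libraries. The controls differed in their response: replicate 2 at 4 hr had Nos2 at 128.45 TPM and Il6 at 58.5 TPM against 628 and 231 TPM in replicate 1, while the knockout libraries had 573 and 602 TPM of Nos2 and 234 and 187 TPM of Il6. Without replicate 2 no member and 13 of 11044 genes were called, and without replicate 1 no member and 1105 genes.

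Other parts of the splicing machinery were read from lists of genes chosen for their function. Of 40 genes of the core spliceosome, 12 were higher and 4 lower at 4 hr in the 4 hr compound experiment, 3 and 2 in the Arid1a and 3 and 3 in the Pbrm1 experiment. Of all tested genes 20.1%, 17.9% and 16% were higher and 37.4%, 35.5% and 30.6% lower in those comparisons. In Arid1a-/- cells at 1 hr 17 were higher and none lower, led by Snrpa1, a U2 snRNP protein (1.13 ± 0.11), and with BRM014 at 60 min 8 were higher and none lower, including Sf3b5 (0.63 ± 0.12). Of all genes 18.7% and 16.8% were higher in these 2 comparisons. The list medians were 0.31 and 0.21, against 0.03 and 0.04 over all genes. Of 26 SR-related proteins and other SR protein kinases, 7 were lower and none higher at 60 min in control cells (18.1% and 7.47% of all genes), led by Rsrp1, an arginine-serine-rich protein, at a mean of 93.3 TPM against 324 TPM (-1.77 ± 0.12). Rsrp1 was already lower at 20 min (-0.72 ± 0.12) and was higher with BRM014 than in control cells at 60 min (0.72 ± 0.12). Ppig, a cyclophilin with an arginine-serine domain, was higher with BRDK98 (1.202 ± 0.07) and lower with BRM014 (-0.69 ± 0.07) at 60 min.

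Among 33 other RNA-binding splicing regulators, 15 were higher and 4 lower at 4 hr in the 4 hr compound, 8 and 6 in the Arid1a and 10 and 1 in the Pbrm1 experiment, to be read against the same shares of all genes (20.1%, 17.9% and 16% higher; 37.4%, 35.5% and 30.6% lower). Of 14 genes of nonsense-mediated decay, 5 were higher and 1 lower, 2 and 2, and 1 and 1 at 4 hr in the same experiments. Smg6, the endonuclease of the pathway, fell in all 3 (-1.50 ± 0.15, -1.62 ± 0.12 and -1.53 ± 0.23).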

How the data were processed

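Libraries of mouse macrophage RNA were all prepared with the same kit, a stranded one for mRNA, and sequenced single-end at 50 bp, per the labels' protocols; the molecule labels call it total RNA in some samples and polyA RNA in others. STAR 2.5.3a, HOMER and DESeq2 with mm10 (GRCm38) are named in the submitters' processing notes. The deposited TPM values are exon reads of both strands for one transcript per gene, per the file headers, so antisense partners cannot be told apart. The authors' deposited tables give log2 fold changes with adjusted p-values.

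One limma fit (3.58.1, R 4.3.3) per experiment was made over all groups on log2(TPM + 1), with trend and robust moderation, for genes with at least 1 TPM in 2 libraries. It was repeated on TPM scaled by median ratio, and a call needed an adjusted p of 0.05 and the same sign in both. Adjustment was over all genes tested. Residual degrees of freedom were 5, 5, 3 and 9. Whole reads were recovered from the TPM steps: in every library 100% of low values were whole within 0.1 read. They served for voom as an alternative. A test on counts had been planned should counts be deposited, but the tables hold TPM. One column that repeats another was not used. The method was also run on simulated data with equal read depth in all libraries and a small set of changed genes, balanced in direction. Unequal depth and a shift of most genes, as seen at 4 hr, were not simulated.

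Named were a fixed list of members, the members with the largest called changes in each comparison (up to 6 per direction, mean of at least 5 TPM in one group), and called genes of the other lists. The members and lists were chosen with earlier results of these data known. Promoters come from RefSeq and transcript types from GENCODE. Alternatives were pseudocount 0.1, no filter, each scaling alone, a replicate block, voom and leaving out each library.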

Additional observations from a re-analysis of the deposited data

Results flagged for a closer look

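In 4 comparisons the effect of a perturbation differed between time points by a direct test of that difference (limma interaction contrast, called on both scalings). The Arid1a genotype effect differed between 4 and 1 hr of LPS in 14 of 39 members (15.9% of all genes), and Clk1 changed by 1.25 on the log2 scale between those times: the knockout libraries were far below the controls at 1 hr and overlapped them at 4 hr; the 1 hr samples of that experiment carry another RNA label than the 4 hr samples. The compound effect differed between 60 and 20 min of lipid A in 8 members with ACBI1 (18.5% of all genes, so near the background), 10 with BRM014 (13.3%) and 4 with BRDK98 (6.66%). With BRM014 the difference was 2.19 for Srsf7 and 2.10 for Srsf2, neither called at 20 min, both above all other libraries at 60 min. These counts move with single libraries, as given under the processing.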

How the results depend on the processing

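Of 311 called values of single members, all kept their call with voom, and on each scaling alone by the definition of a call; pseudocount 0.1 lost 3, the replicate block 7 and no filter 27, and 313 of 1238 were lost when a library was left out. None reversed. Counts of called members moved by over 1.5 times as follows. TPM as deposited alone gave 18 at 1 hr of lipid A, 14 for BRDK98 against ACBI1 at 4 hr, 29 at 4 hr of LPS, 20 at 4 hr in the Pbrm1 experiment, 24 at 60 min, 16 with ACBI1 and 11 with BRDK98 at 60 min, and 8 for BRDK98 by time. Rescaled TPM alone gave 25 at 1 hr and 32 at 4 hr of lipid A, 29, 29 and 30 with ACBI1, BRM014 and BRDK98 at 4 hr, 14 for BRDK98 against ACBI1, 19 at 1 hr and 29 at 4 hr of LPS, 13 in Arid1a-/- cells at 4 hr, 24 in the Pbrm1 experiment and 21 at 60 min. Voom gave 26 at 1 hr and 32 at 4 hr of lipid A, 29 with BRDK98 at 4 hr, 15 for BRDK98 against ACBI1, 21 at 1 hr and 29 at 4 hr of LPS, 12 in Arid1a-/- cells at 4 hr, 23 in the Pbrm1 experiment and 22 at 60 min. No filter gave 1 for BRDK98 by time. Each setting calls on 1 scaling or tests other genes, and the cause of the moves was otherwise not tested.

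With each library left out in turn, counts ranged from 8 to 16 at 1 hr of lipid A (16 without replicate 2 of the 1 hr control), 2 to 6, 2 to 4 and 9 to 11 for BRM014 against ACBI1, BRDK98 against ACBI1 and BRDK98 against BRM014 at 4 hr, 12 to 25 and 5 to 19 for Arid1a-/- at 1 hr and by time, and 4 to 9 in the Pbrm1 experiment. They ranged from 1 to 3 at 20 min, 6 to 7 with ACBI1, 4 to 6 with BRDK98 and 8 to 19 for BRDK98 against BRM014 at 60 min, and 3 to 7, 6 to 12 and 1 to 4 by time for ACBI1, BRM014 and BRDK98. Leaving out the lone 4 hr control of the 4 hr compound experiment gives no value. Same-numbered replicates correlated in their deviations by -0.0359 to 0.173, -0.0872 to 0.132, 0.00689 to 0.218 and -0.242 to 0.252 in the 4 experiments, so the numbers were not taken as pairs. With the replicate block the counts moved by at most 2, for example from 10 to 12 at 1 hr of lipid A.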
